A study of Mus musculus with 8 samples.

Results

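Potassium channel genes of the mouse were followed across hypothalamus and liver, 2 strains and 2 diet conditions. A gene was taken when an array probe carried a single symbol that begins with Kcn and a further letter, which gave 70 probes for 67 genes, out of 13840 genes with a single-symbol probe and 33012 probes in all. Of the 3 genes with a pair of probes, the probe that was brighter on average over the arrays stood for the gene. By symbol, the 67 genes held 19 pore subunits of voltage-gated channels, 8 silent voltage-gated subunits, 12 auxiliary subunits, 7 subunits of channels opened by calcium or sodium, 12 inward rectifiers, 8 two-pore channels and Kcnrg, a regulator of voltage-gated channels that fits none of these groups. Of 35 genes listed for their known roles, 27 were among them, and the others were not analysed here.

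Potassium channels let potassium leave or enter a cell along its electrochemical gradient and so set the resting potential and shape the firing of neurons. Voltage-gated pores open on depolarisation, silent subunits change such pores but form none alone, auxiliary subunits alter their gating and traffic, inward rectifiers and two-pore channels carry current near rest, and calcium-activated channels couple the potential to intracellular calcium. In the hypothalamus such channels take part in the electrical response of neurons to nutrients and hormones, while in liver they are known for roles in hepatocyte volume, in bile formation and in the cells of vessels and bile ducts.

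The arrays were single-channel chemiluminescent arrays, and each array was hybridised with a single RNA pool made from 6 males. The wild-type strain was C57BL/6J, called B6 below. It was set against mice homozygous for B6.CAST-17, a congenic line with CAST-derived chromosome 17 sequence on the B6 background. The mice were kept on chow, or were offered for 24 h a carbohydrate/protein diet beside a fat/protein diet (78% of the named macronutrient and 22% protein each), called 2-choice below. Both strains had been screened for nutrient intake over 10 days (20 to 25 mice each) and the most divergent mice were pooled, so the pools are selected mice and not a random sample of a strain. A return to chow for 6 weeks is recorded with the screening for all 8 pools. Collection at 4 h before lights out is recorded for the 2-choice mice, and the hour for chow mice was not established here. With tissue, strain and diet there were 8 combinations and 8 arrays, with no repeated pool, so every p-value below measures only the spread between these pools.

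Levels are log2 values of the deposited intensity after quantile normalisation over the 8 arrays, so that hypothalamus and liver share a scale. A probe's level is not comparable with that of another probe, and detection flags were not used here. A level filter was set at the 40th percentile of a tissue (9.17 in hypothalamus, 9.14 in liver), and levels under it are read here as near the floor. Differences are in log2 units with the standard error (SE) of the fit, and a gene was called when its limma p-value, adjusted over all probes tested, was under 0.05. Of the 67 genes, 47 passed the filter in hypothalamus, 28 in liver, 21 in both and 13 in neither.

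The tissue labels were borne out by marker genes on every array. For hypothalamic peptide neurons (7 of 9 markers measured), the hypothalamus arrays had a summed level of 19.60 to 20.24 and the liver arrays 11.89 to 12.63. For hepatocytes (5 of 8 measured) the sums were 11.13 to 13.29 and 21.96 to 22.64. The free text of some labels disagrees with their titles in strain (hypothalamus congenic chow), tissue or diet (liver), and groups here follow the titles, which match the structured fields. The 2 hypothalamus chow arrays stood apart. Levels of the strains correlated at r = 0.882 over all probes in that pair, against 0.971 in the hypothalamus 2-choice pair, 0.931 in the liver chow pair and 0.933 in the liver 2-choice pair. Over 426 genes of chromosome 17, the chromosome of the donor segment, the strain difference of the hypothalamus chow pair as labelled correlated at r = -0.275 with that of the hypothalamus 2-choice pair and at -0.047 and -0.113 with those of the liver pairs, whereas the other 3 correlations were 0.216 to 0.488. These are descriptions across genes. The strain labels of the hypothalamus chow pair are therefore open to doubt. Counts of called channel genes are also given without this pair for tissue and for strain over both tissues. Without it, strain in hypothalamus rests on a single pair of arrays and diet over both tissues rests on liver. Diet in hypothalamus and diet by tissue need its arrays. In the deposited table the strains of a tissue and diet shared a median intensity (560 and 1338 for hypothalamus chow and 2-choice, 700 and 702 for liver), so diet and the authors' scaling set cannot be told apart.

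The tissue comparison gave the largest differences. Of the 67 genes, 19 were higher in hypothalamus (28.4%) and Kcnk5 alone was higher in liver, while 47 were not called. Over all 13840 genes with their brightest probe, 19.6% were called higher in hypothalamus and 19.4% higher in liver (14.9% and 14.2% of all 33012 probes), so the share higher in hypothalamus was above the background and the share higher in liver below it. The median difference, hypothalamus minus liver, was 0.31 over the 67 genes and -0.04 over all genes. In 24 genes hypothalamus was above liver in all 4 matched pairs and in 7 it was below in all 4. The share of all genes that do so was not computed, so these counts are not read as an excess. The 4 hypothalamus levels lay above all 4 liver levels in 17 genes and below them in 3, against 20.3% and 21.2% of all genes. By group, 8 of 19 voltage-gated pores, 6 of 12 auxiliary subunits, 3 of 8 two-pore channels, 1 of 7 calcium- or sodium-activated subunits, 1 of 12 inward rectifiers and 0 of 8 silent subunits were called higher in hypothalamus (limma; 1 of the 8 silent subunits, Kcns3, had an unadjusted p under 0.05). Median differences were 0.38, 1.20, 0.75, 0.65, -0.08 and 0.14 in the same order. With levels under the 40th percentile set to that percentile, 12 genes were called higher in hypothalamus, and Kcna5, Kcnab1, Kcnab2, Kcne4, Kcnh2, Kcnh5 and Kcnip2 were not. Of all 33012 probes, 3834 were then called higher in hypothalamus. Without the hypothalamus chow arrays, on 1 residual degree of freedom, 20 were higher in hypothalamus and 4 in liver, the latter Kcnc1, Kcnd3, Kcnk4 and Kcnk5. In that fit 10492 of 33012 probes were called, 5505 of them higher in hypothalamus. The other probe of Kcnc1 and that of Kcnk4 were higher in hypothalamus in both 2-choice pairs, so these liver calls depend on the probe.

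**Figure D1:**
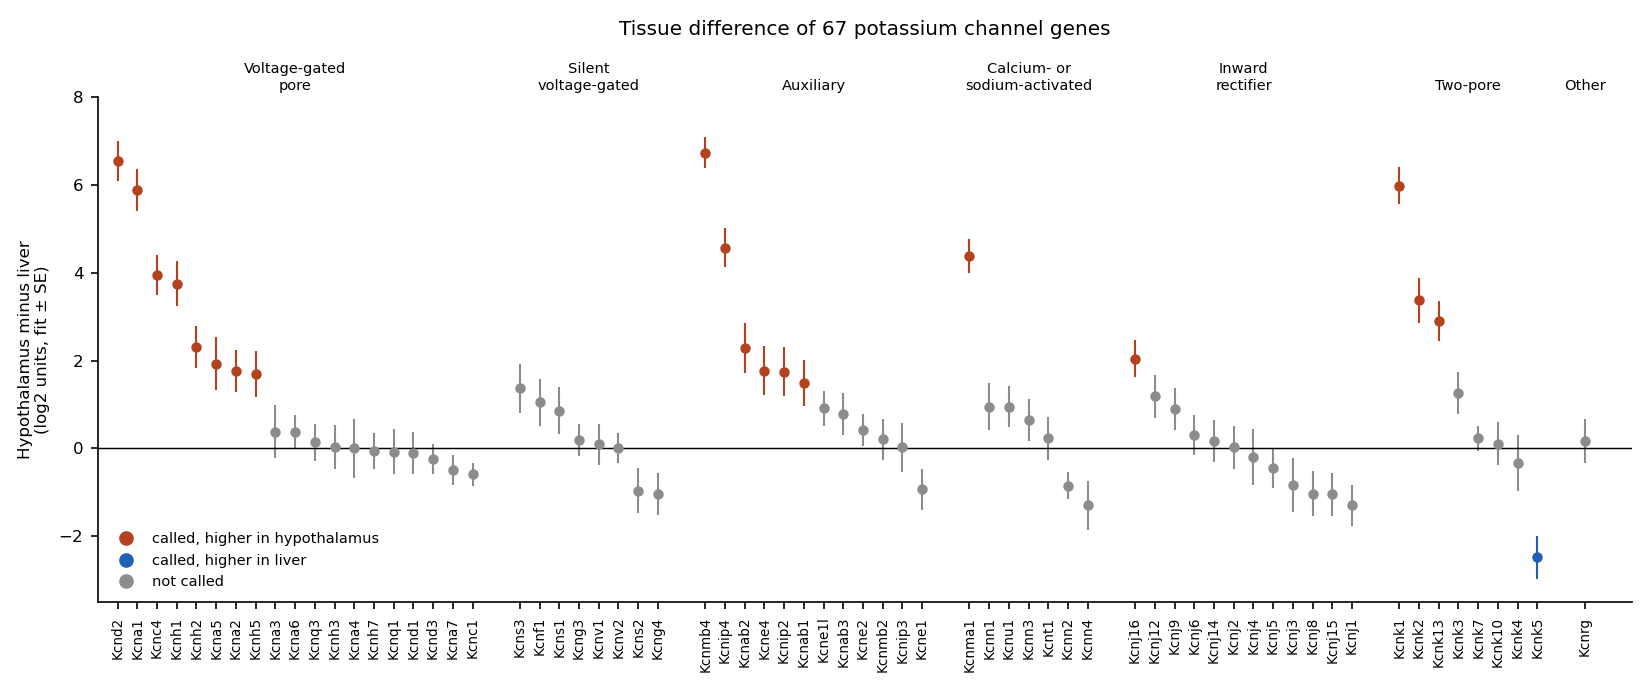
Hypothalamus minus liver difference of the 67 genes (vertical axis, log2 units, points are the fitted difference and bars its SE over 4 matched pairs), ordered within 6 groups of channel subunits and Kcnrg. Called genes are red where higher in hypothalamus (19) and blue where higher in liver (Kcnk5), and the largest fitted differences are those of Kcnmb4 (6.73) and Kcnd2 (6.54).

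Promoter sequences of RefSeq (GRCm38.p6) were matched for 52 of the 67 genes, with 70 entries of 250 bases before and 50 after a start. The 100 bases upstream of the start are shown for Kcnmb4, Kcnd2 and Kcnk1, the 3 genes with the largest fitted hypothalamus excess, and for Kcnk5, the gene called higher in liver, since they stand at the ends of the tissue comparison. Each is written 5′ to 3′ on the strand of the gene, with CG dinucleotides in capitals.
Kcnmb4, chr10:116473524-116473623, minus strand: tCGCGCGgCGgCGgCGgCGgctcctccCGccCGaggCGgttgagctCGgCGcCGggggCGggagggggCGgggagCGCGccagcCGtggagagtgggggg
Kcnd2, chr6:21215246-21215345, plus strand: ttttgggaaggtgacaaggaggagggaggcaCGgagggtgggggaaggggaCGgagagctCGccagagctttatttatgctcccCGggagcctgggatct
Kcnk1, chr8:125995002-125995101, plus strand: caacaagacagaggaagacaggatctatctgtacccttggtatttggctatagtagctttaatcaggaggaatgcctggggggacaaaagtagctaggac
Kcnk5, chr14:20181783-20181882, minus strand: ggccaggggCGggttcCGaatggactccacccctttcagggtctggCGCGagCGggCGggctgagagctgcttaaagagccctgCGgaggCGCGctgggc
The stretches differ in base composition within the hypothalamus group: that of Kcnmb4 holds 18 CG dinucleotides, that of Kcnd2 holds 4 and that of Kcnk1 none (0 in these 100 bases), while that of Kcnk5 holds 9. Over the whole entries the median ratio of observed to expected CG was 0.438 for the 70 entries of channel genes and 0.384 for all 32851 promoters, with a median GC content of 59% and 52.7%. The partial REST motif TTCAGCACC, searched on both strands as the 9 letters of a motif that neuronal genes often carry, was in 0 of the 70 entries and in 0.371% of all promoters. The TATA box TATAAA, also on both strands, was in 4 of the 70 (5.71%) and in 13.6% of all. Neither motif contains the other, and a missing match says only that the letters are absent from these windows.

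Of the 19 voltage-gated pores, the 8 called were all higher in hypothalamus. Kcnd2, which carries the somatodendritic A-type current, was at 16.71 and 17.17 in the chow hypothalamus arrays (B6, then congenic, an order kept throughout) and at 14.42 and 16.25 in the 2-choice arrays. In liver it read 9.07, 10.08, 10.10 and 9.16. Every hypothalamus level was thus above every liver level, by a fitted 6.54 ± 0.45 (92.8-fold, adjusted p = 2.7e-07). Kcna1, a low-threshold pore of axons, was at 15.28, 15.00, 14.59 and 14.77 in hypothalamus and at 8.0, 8.99, 10.75 and 8.39 in liver, where the B6 2-choice array was the highest. The difference was 5.88 ± 0.47 (adjusted p = 9.7e-07). As the liver mean of Kcna1 (9.03) lay under the 40th percentile of all values, its size depends on the floor, and with the liver mean raised to that percentile (9.14) it was 5.77, or 54.6-fold.

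Kcnc4, a fast-inactivating pore of the high-threshold family, was at 13.33, 12.31, 12.82 and 12.46 in hypothalamus and at 8.36, 9.66, 8.56 and 8.53 in liver, a difference of 3.95 ± 0.45 (adjusted p = 2.1e-05). For Kcnh1, a pore of the ether-a-go-go family, the levels were 12.27, 12.56, 11.63 and 11.98 against 8.80, 9.75, 8.30 and 6.59, and the difference was 3.75 ± 0.51 (adjusted p = 1.0e-04). The liver mean of Kcnh1 (8.36) was under the 40th percentile, and raised to it the mean gave a difference of 2.97, or 7.82-fold in place of 13.4-fold. Neither gene overlapped between the tissues. Kcnh2, which carries the rapid repolarising current of heart and is also made in neurons, was at 11.47, 9.71, 11.34 and 11.13 against 8.97, 8.31, 8.41 and 8.70, with the labelled congenic chow array the lowest in hypothalamus. It differed by 2.31 ± 0.48 (adjusted p = 2.7e-03). The levels of Kcna5, a delayed rectifier best known from heart and vessels, overlapped: 9.50, 9.89, 11.74 and 11.71 in hypothalamus and 9.58, 8.60, 8.44 and 8.49 in liver. Its difference of 1.93 ± 0.61 was called (adjusted p = 0.033) and came mainly from the 2-choice pairs. The call held in 4 of 8 fits that left out 1 array.

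Kcna2, the axonal partner of Kcna1, differed by 1.76 ± 0.48 (adjusted p = 0.015) and Kcnh5, another ether-a-go-go pore, by 1.69 ± 0.52 (adjusted p = 0.028). With the liver mean raised to the 40th percentile, the Kcnh5 difference was 1.01 (2.02-fold in place of 3.23-fold). Its call held in 2 of 8 fits that left out 1 array. The hypothalamus levels of Kcna2 lay close together at 10.11, 10.60, 10.67 and 10.58, above liver levels of 7.90, 9.71, 8.87 and 8.43, and the call held in 3 of 8 fits that left out 1 array. The second probe of Kcnh5 gave only 0.43 ± 0.46 (adjusted p = 0.57), so the 2 probes of this gene disagree. They disagree further for Kcnc1, a pore of fast-spiking neurons. Its brighter probe was at 13.26, 12.09, 12.41 and 12.72 in hypothalamus and 13.48, 12.66, 13.53 and 13.15 in liver (-0.59 ± 0.26, adjusted p = 0.123), while the other probe was at 12.48, 13.42, 11.84 and 11.96 against 9.34, 9.66, 9.41 and 10.24 (2.76 ± 0.41, adjusted p = 2.27e-04). The mean of both Kcnc1 probes differed by 1.09 (adjusted p = 0.0195), so the direction for this gene depends on the probe.

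The remaining voltage-gated pores were not called. Kcnd3, a second A-type pore, was bright in both tissues, at 12.82, 12.41, 11.56 and 11.73 in hypothalamus and 12.46, 11.92, 12.75 and 12.39 in liver (-0.25 ± 0.34, adjusted p = 0.66). Kcna3, the pore known from lymphocytes, differed by 0.38 ± 0.60, and Kcnq1, the slow repolarising pore of heart and epithelia, by -0.08 ± 0.51. Kcnq3, a subunit of the M-current, had means of 8.61 and 8.47, both near the floor (0.14 ± 0.42). The other 6 pores without a call, Kcna4, Kcna6, Kcna7, Kcnd1, Kcnh3 and Kcnh7, lay between -0.49 (Kcna7) and 0.38 (Kcna6).

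Among the auxiliary subunits, 6 of 12 were called, all higher in hypothalamus. Kcnmb4, the beta subunit that slows neuronal BK channels, had the largest fitted difference of the 67 genes, with 15.35, 14.71, 14.36 and 14.61 in hypothalamus and 8.52, 8.62, 6.91 and 8.07 in liver (6.73 ± 0.35, adjusted p = 2.2e-08). All 4 liver levels were under the filter, and with the liver mean raised to the 40th percentile the difference was 5.62 (49.1-fold), less than those of Kcnd2 (6.54) and Kcna1 (5.77). Kcnma1, the pore that Kcnmb4 joins, was at 13.09, 13.39, 14.17 and 13.94 against 9.56, 9.41, 8.84 and 9.22, a difference of 4.38 ± 0.38 (20.9-fold, adjusted p = 1.9e-06). Kcnip4, a calcium-binding subunit of the A-type pores such as Kcnd2, was at 13.35, 12.54, 14.27 and 13.92 against 9.22, 8.88, 7.93 and 9.79 (4.57 ± 0.45, adjusted p = 6.6e-06). In these 3 genes the tissues did not overlap.

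Kcnab2, an oxidoreductase-like beta subunit of Kcna pores, showed a wide spread within hypothalamus, at 8.22, 10.45, 11.11 and 11.30, and a narrow one in liver, at 8.06, 7.59, 8.15 and 8.17. The difference was 2.28 ± 0.57 (adjusted p = 8.6e-03), with the labelled B6 chow array of hypothalamus at the liver level. The liver mean of Kcnab2 (7.99) was under the 40th percentile, and raised to it the mean gave a difference of 1.13 (2.19-fold in place of 4.86-fold). Its relative Kcnab1 differed by 1.49 ± 0.52 (adjusted p = 0.049), Kcne4, an inhibitory single-span subunit, by 1.77 ± 0.56 (adjusted p = 0.031) and Kcnip2, a further A-type partner, by 1.75 ± 0.56 (adjusted p = 0.034). Of 8 fits that left out 1 array, the call held in 4 for Kcnab1, 4 for Kcne4 and 2 for Kcnip2. Against the 40th percentile the Kcne4 difference was 1.04 (2.05-fold in place of 3.41-fold) and that of Kcnip2 was 0.71 (1.64-fold in place of 3.36-fold). The 6 auxiliary genes without a call were Kcne1l (0.91), Kcnab3 (0.79), Kcne2 (0.42), Kcnmb2 (0.21), Kcnip3 (0.02) and Kcne1 (-0.93).

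**Figure D2:**
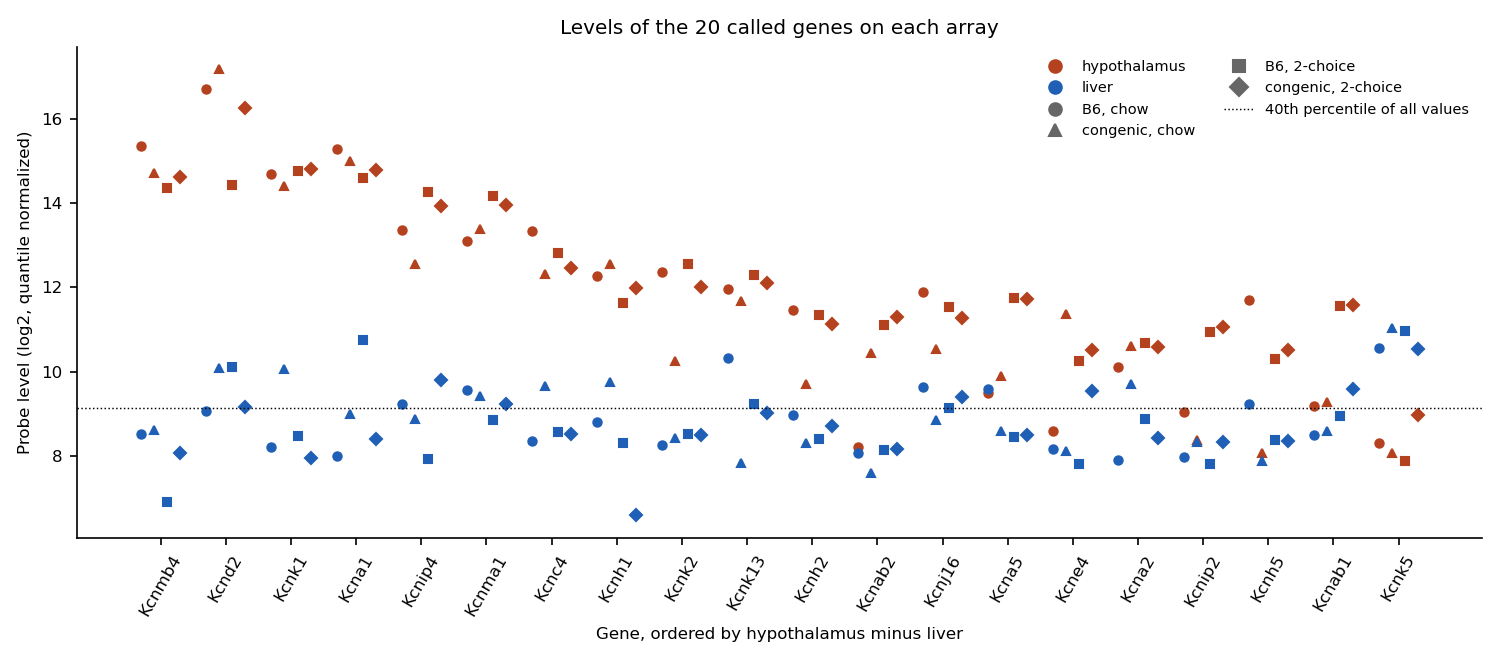
Levels of the 20 called genes on each of the 8 arrays (vertical axis, log2, quantile normalised), ordered by the difference between the tissues, with hypothalamus in red, liver in blue and strain and diet by symbol. The dotted line is the 40th percentile of all values (9.14): hypothalamus levels of the genes on the left lie far above it, most liver levels lie near or under it, and Kcnk5 on the right has the opposite order.

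The two-pore channels held the only gene called higher in liver. Kcnk5, an acid-sensitive background channel of epithelia, was at 10.56, 11.04, 10.97 and 10.54 in liver and at 8.30, 8.07, 7.87 and 8.96 in hypothalamus. All 4 liver levels lay above every hypothalamus level, and the difference was -2.48 ± 0.49 (5.57-fold higher in liver, adjusted p = 1.9e-03). Since the hypothalamus mean was near the floor, the difference against the 40th percentile is the safer figure, at -1.64. Kcnk1, a weakly conducting background channel, went the other way, at 14.68, 14.40, 14.76 and 14.81 in hypothalamus and 8.22, 10.07, 8.48 and 7.96 in liver (5.98 ± 0.42, adjusted p = 2.9e-07). Its hypothalamus levels ranged only from 14.40 to 14.81.

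Kcnk2, opened by stretch, heat and lipids, was at 12.37, 10.25, 12.55 and 12.01 against 8.27, 8.42, 8.51 and 8.49 (3.37 ± 0.51, adjusted p = 2.4e-04), with the labelled congenic chow array the lowest in hypothalamus. With its liver mean (8.42) raised to the 40th percentile the Kcnk2 difference was 2.65, or 6.29-fold in place of 10.3-fold. Kcnk13, a background channel known from microglia, was at 11.96, 11.67, 12.29 and 12.11 against 10.33, 7.83, 9.23 and 9.01 (2.90 ± 0.45, adjusted p = 3.2e-04). The summed microglia and macrophage markers (5 of 7 measured) ranged from 15.02 to 15.74 in hypothalamus and from 15.44 to 16.81 in liver, where Clec4f, a marker of liver macrophages, was high (mean 14.35 against 8.96). Their part in the Kcnk13 difference was not tested. Kcnk3, the acid-sensitive relative of Kcnk5, did not pass (1.26 ± 0.47, adjusted p = 0.064), although its hypothalamus levels of 8.29, 10.93, 9.45 and 8.63 all lay above its liver levels, of which 8.24 was the highest. Against the 40th percentile its difference was 0.19. Kcnk4, a mechanosensitive channel of neurons, overlapped widely (-0.33 ± 0.63), and Kcnk7 (0.23) and Kcnk10 (0.11) were not called.

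Of the inward rectifiers only Kcnj16, a pH-sensitive subunit of glia and epithelia, was called, at 11.88, 10.53, 11.53 and 11.26 in hypothalamus and 9.63, 8.86, 9.14 and 9.40 in liver (2.04 ± 0.42, adjusted p = 2.7e-03). The sum of the oligodendrocyte markers (4 of 6 measured, 1 under the filter in liver) was also higher in hypothalamus, at 17.27 to 18.59 against 11.08 to 12.12. The astrocyte markers (4 of 6 measured) summed lower in hypothalamus, at 15.41 to 16.06 against 18.35 to 18.71, with single markers split. The part of either list in the Kcnj16 difference was not tested. The subunits of the G-protein-gated rectifiers, through which many neurotransmitters inhibit neurons, were not called: Kcnj3 differed by -0.83 ± 0.61, Kcnj5 by -0.45 ± 0.46, Kcnj6 by 0.31 ± 0.45 and Kcnj9 by 0.89 ± 0.48. Kcnj8, the ATP-sensitive pore of vascular mural cells, was even in liver at 10.97, 10.54, 11.02 and 10.53 and split by diet in hypothalamus, at 8.95 and 8.45 on chow and 10.98 and 10.57 on 2-choice (-1.03 ± 0.51, adjusted p = 0.18). Kcnj1, a potassium secretion channel of kidney, was lower in hypothalamus in each pair without passing (-1.30 ± 0.47, adjusted p = 0.061). The other members of the group, Kcnj12 (1.19), Kcnj14 (0.17), Kcnj2 (0.02), Kcnj4 (-0.19) and Kcnj15 (-1.05), were not called.

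Beside Kcnma1, no calcium- or sodium-activated subunit passed. Kcnn2, a small-conductance channel of the afterhyperpolarisation, was nearly constant in liver at 12.30, 12.32, 12.23 and 12.36 and lower in every hypothalamus array at 10.91, 11.74, 11.89 and 11.26, yet the difference of -0.85 ± 0.31 missed the threshold (adjusted p = 0.064). Kcnn4, the intermediate-conductance channel of blood cells and epithelia, differed by -1.30 ± 0.56 with 1 high liver array (12.07 in congenic chow against 8.62 to 9.85), Kcnn3 by 0.65 ± 0.48 and the sodium-activated Kcnt1 by 0.23 ± 0.49. Kcnn1 and the sperm channel gene Kcnu1 both differed by 0.95. The silent subunits lay between -1.03 (Kcng4) and 1.37 (Kcns3, 0.56 SE, adjusted p = 0.092). Kcng3 was the only one of the 67 genes on chromosome 17, and with means of 8.52 and 8.33 it was under the filter in both tissues, so no strain test was made for it. Kcnrg differed by 0.16 ± 0.50.

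In pooled tissue, fewer cells of a type and less RNA per cell cannot be told apart. The neuronal markers moved with the tissue as well: 7 of 8 pan-neuronal markers were measured, whose sum in hypothalamus ranged from 19.68 to 20.15 and that in liver from 13.86 to 14.32, where 5 of the 7 were under the filter. The Snap25 probe was near the floor in hypothalamus too (mean 8.41). Astrocyte markers (4 of 6 measured) summed to 15.41 to 16.06 in hypothalamus and 18.35 to 18.71 in liver, but the markers were split. Means of Aldh1l1 (14.17 in hypothalamus, 18.53 in liver) and Slc1a2 (11.37 and 13.83) were higher in liver, and Aldh1l1 led the liver sum. Slc1a3 (14.23 and 9.71) and Gja1 (13.52 and 9.17) were higher in hypothalamus. The share of cell makeup in the channel differences was not tested.

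Genes that work with the channels were read from lists of partners, of other voltage-gated channels and of potassium transport, and their counts stand beside 19.6% of all genes called higher in hypothalamus and 19.4% higher in liver. Of 20 measured partners of potassium channels, 13 were called higher in hypothalamus and 1 higher in liver, with a median of 2.49. Lgi1, a secreted protein of the Kcna1 complex, differed by 5.78 ± 0.36, Dpp10 and Dpp6, which assemble with A-type pores, by 5.15 ± 0.36 and 3.13 ± 0.38, and Cntnap2, which clusters Kcna pores along axons, by 4.68 ± 0.42. The partner higher in liver was Abcc9, the sulfonylurea receptor that pairs with Kcnj8 (-2.25 ± 0.51, adjusted p = 0.00506). The summed mural cell markers (4 of 4 measured, 1 under the filter in hypothalamus and 2 in liver) ranged from 12.51 to 12.58 in hypothalamus and from 11.63 to 12.36 in liver. The endothelial markers (5 of 5 measured, 1 under the filter in each tissue) summed to 11.28 to 12.50 and 15.23 to 15.61. The part of either list in the Abcc9 difference was not tested. Of 23 voltage-gated sodium and calcium channel genes, 12 were called higher in hypothalamus and 1 in liver (median 1.55), among them the calcium channel subunit Cacna2d3 (6.70 ± 0.29) and, in liver, the sodium channel gene Scn10a (-1.95 ± 0.56). Of 11 pump and cotransport genes, 7 were called higher in hypothalamus and none, 0 of 11, in liver (limma; median 2.61), with Fxyd6, a modulator of the sodium pump, at 8.76 ± 0.30 and the neuronal potassium-chloride cotransporter Slc12a5 at 3.15 ± 0.46.

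The strain comparison asked whether channel genes differ between congenic and B6 pools. No potassium channel gene was called, in liver (0 of 28 tested, lowest adjusted p 0.738) or in hypothalamus (0 of 47, lowest 0.82), by limma. At an unadjusted p under 0.05 there were 1 in liver and 2 in hypothalamus, and over all 19807 probes tested in each tissue the calls were 0% in both, with 1267 and 942 probes at that unadjusted level. Of the channel partners, sodium and calcium channels and transport genes, 0 were called in either tissue. By size alone, a mean strain difference that reached 1.5-fold and had 1 sign on both diets was seen in liver for 2 higher and 8 lower channel genes of 28 (7.14% and 28.6%, against 7.41% and 10.7% of all genes). In hypothalamus it was 8 higher and 8 lower of 47 (17.0% each, against 8.60% and 8.61%). The hypothalamus count asks for 1 sign in both pairs and so rests on the strain labels of the chow pair, which are in doubt. The median size of the liver difference over the 28 genes, in either direction, was 0.54 on chow and 0.49 on 2-choice, against 0.30 and 0.32 over all genes.

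Among the liver genes named by size, Kcnj4, a classical inward rectifier of brain and heart, came first. It was at 10.86 on chow and 11.01 on 2-choice in B6 and at 9.50 and 9.04 in the congenic pools, so both pairs went down, by -1.36 and -1.98 (-1.67 ± 0.58, adjusted p = 0.738). Kcnj1 differed by -1.22 ± 0.56, Kcnk4 by -1.03 ± 0.78, and Kcnip3, a calcium sensor that also binds DNA, and Kcnj9 by -0.88 each. The mean of both Kcnk4 probes differed by -0.48. Higher in the congenic livers without passing were Kcna4, a fast-inactivating pore (1.31 ± 0.85, of which 2.50 on chow and 0.12 on 2-choice), and Kcna3 (0.60 ± 0.74). The Kcna4 mean thus rests on the chow pair.

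In hypothalamus the size of a strain difference followed the diet pair. Over the 47 channel genes the median size was 1.02 in the chow pair and 0.26 in the 2-choice pair (0.55 and 0.20 over all genes). The levels of the 67 genes correlated between strains at r = 0.766 in the chow pair and 0.952 in the 2-choice pair. Both liver pairs were lower than these, at 0.652 on chow and 0.744 on 2-choice. The Kcnk4 mean as labelled rests on the chow pair, with 13.33 in the array labelled B6 chow and 9.69, 9.46 and 8.78 in the others (-2.16 ± 0.78, of which -3.64 on chow and -0.68 on 2-choice). The second Kcnk4 probe, at 8.53, 9.38, 10.22 and 10.55, did not have that high value, so it belongs to 1 probe on 1 array. The Kcnd2 difference of 1.14 ± 0.48 came mainly from the 2-choice pair (0.45 on chow and 1.83 on 2-choice), as did that of Kcnmb2 (0.69, with 0.11 and 1.27).

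Also named by size, without passing, were Kcne4 (1.52 ± 0.81), Kcnip3 (1.5 ± 0.68), the inward rectifier Kcnj12 (1.33 ± 0.72) and Kcnab2 (1.21 ± 0.70), higher in the congenic pools as labelled. Their chow pairs gave 2.77, 2.92, 2.25 and 2.22 and their 2-choice pairs 0.26, 0.09, 0.40 and 0.19. Lower were Kcnk2 (-1.33 ± 0.65), the silent subunit Kcns1 (-1.23 ± 0.67), Kcnn3 (-1.19 ± 0.79) and Kcnh2 (-0.99 ± 0.69), by -2.12, -1.95, -2.35 and -1.76 on chow and -0.54, -0.51, -0.02 and -0.22 on 2-choice. In these 8 genes the mean came mostly from the chow pair, whose labels are in doubt. Without that pair the strain difference in hypothalamus is that of the 2-choice pair, a single array of each strain. The error of that fit comes from liver alone, so no call is read from it. Fits without the B6 or the congenic 2-choice array rest on the chow pair in the same way.

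**Figure D3:**
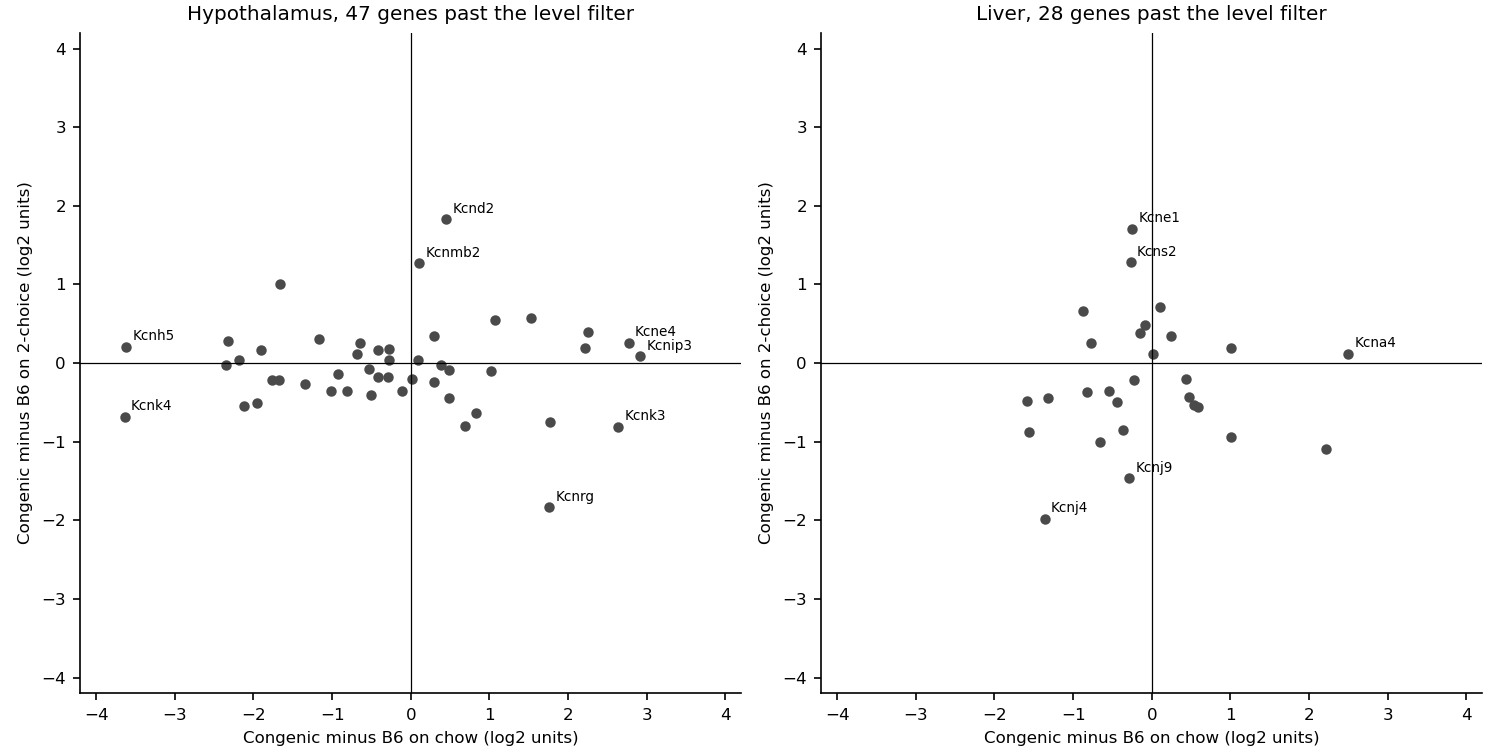
Strain difference (congenic minus B6, log2 units) of each channel gene past the level filter on chow (horizontal axis) and on 2-choice (vertical axis), in hypothalamus (47 genes) and liver (28 genes), with 1 point per gene and no error bars because each pair is 2 arrays. In hypothalamus the points spread along the chow axis (median size 1.02) and stay near 0 on the 2-choice axis (0.26), while in liver both axes are alike (0.54 and 0.49).

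Over both tissues, 0 of 21 channel genes tested were called for strain (limma; 0% of 15458 probes, 625 of them at an unadjusted p under 0.05). Without the hypothalamus chow pair it was also 0 of 21, with 8 probes called. Kcnk4 had the lowest p of the 21 in the full fit, at -1.60 ± 0.56 (adjusted p = 0.869). This is its brighter probe, while its second probe was higher in the congenic pools as labelled in both hypothalamus pairs. The strain by tissue interaction called 0 of 21 (0% of 15458 probes, 746 at an unadjusted p under 0.05), with Kcnj4 (2.48 ± 0.84, hypothalamus minus liver) and Kcnip3 (2.39 ± 0.99) at an unadjusted p under 0.05 and an adjusted p of 0.826. Without the hypothalamus chow pair the hypothalamus side of the interaction rests on the 2-choice pair alone, with error from liver, so no call is read from it. An unequal strain difference in hypothalamus and liver was therefore not shown for any of the 21.

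The diet comparison asked how channel genes stood after a day of choice against chow. In liver, 0 of 28 channel genes were called by limma (lowest adjusted p 0.584, with 1 of the 28 at an unadjusted p under 0.05; 0% of 19807 probes called, 1542 at an unadjusted p under 0.05). By size and sign, 1 was higher and 4 lower (3.57% and 14.3%, against 8.45% and 11.2% of all genes). Kcnj5, a G-protein-gated subunit, was at 9.73 and 9.97 on chow and at 8.29 and 8.64 on 2-choice, lower in both strains by -1.44 and -1.34 (-1.39 ± 0.52). Both of its 2-choice levels were under the filter. Kcnn4 differed by -1.79 ± 0.85, but by -0.14 in B6 and -3.44 in the congenic pools, and so rests on the high congenic chow array. Also lower by size were Kcnj3 (-1.12 ± 0.61) and Kcna3 (-0.87 ± 0.74), with Kcnk4 as the gene that was higher (0.64 ± 0.78). The second Kcnk4 probe was lower on 2-choice in both strains (10.28 and 10.25 on chow, 9.66 and 9.81 on 2-choice). The mean of both Kcnk4 probes differed by 0.06.

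In hypothalamus, 0 of 47 channel genes were called (limma, lowest adjusted p 0.101) and 11 had an unadjusted p under 0.05, where 202 of 19807 probes (1.02%) were called and 4194 had an unadjusted p under 0.05. By size and sign 14 were higher (29.8%, against 23.9% of all genes) and 7 lower (14.9%, against 14.8%) on 2-choice. The median difference was 0.28 over the 47 genes and 0.11 over all genes. The higher genes were led by Kcnab1, a beta subunit, and Kcnip2, an A-type partner. Kcnab1 was at 9.18 and 9.27 on chow and at 11.55 and 11.58 on 2-choice, so the strains agreed within each diet, and the difference was 2.34 ± 0.62 (adjusted p = 0.101). Kcnip2 went from 9.04 and 8.37 to 10.95 and 11.06 (2.29 ± 0.60, adjusted p = 0.101), and Kcnj8 from 8.95 and 8.45 to 10.98 and 10.57 (2.07 ± 0.58, adjusted p = 0.110). The chow levels of Kcnip2 and Kcnj8 were under the filter level, so the sizes depend on the floor.

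Kcna5 was at 9.50 and 9.89 on chow and 11.74 and 11.71 on 2-choice (2.03 ± 0.64, adjusted p = 0.136). Kcnab2 differed by 1.87 ± 0.70, by 2.89 in B6 and 0.86 in the congenic pools as labelled. Among the lower genes, Kcnk4 differed by -2.39 ± 0.78, most of it from the single high array described above (-3.87 in B6 and -0.91 in congenic). The second Kcnk4 probe was instead higher on 2-choice in both strains (8.53 and 9.38 on chow, 10.22 and 10.55 on 2-choice). The mean of both probes differed by -0.48, so the direction for Kcnk4 depends on the probe. Kcnd2 was lower on 2-choice in both strains, by -2.29 and -0.92 (-1.61 ± 0.48, adjusted p = 0.125), and its relative Kcnd3 by -1.26 and -0.67 (-0.97 ± 0.32, adjusted p = 0.146). Kcnn1 and Kcns1 differed by -1.16 ± 0.70 and -0.99 ± 0.67, again mostly in B6 as labelled. The A-type subunits named here thus stood on both sides in this fit, with the pores Kcnd2 and Kcnd3 lower and the partners Kcnip2 and Kcnip4 (1.15 ± 0.58) higher, none of them past the threshold. Kcnip3 went opposite ways in the strains, by 2.24 in B6 and -0.58 in congenic as labelled (0.83 ± 0.68). No common direction of pores or partners is read from these genes. Kcnd2 and Kcnip4 were called from hypothalamus arrays alone, and Kcnip2 and Kcnip4 with each array centred on its median. With the deposited values unscaled, Kcnip2, Kcnip4 and Kcnd3 (1.39) were called, all higher on 2-choice.

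**Figure D4:**
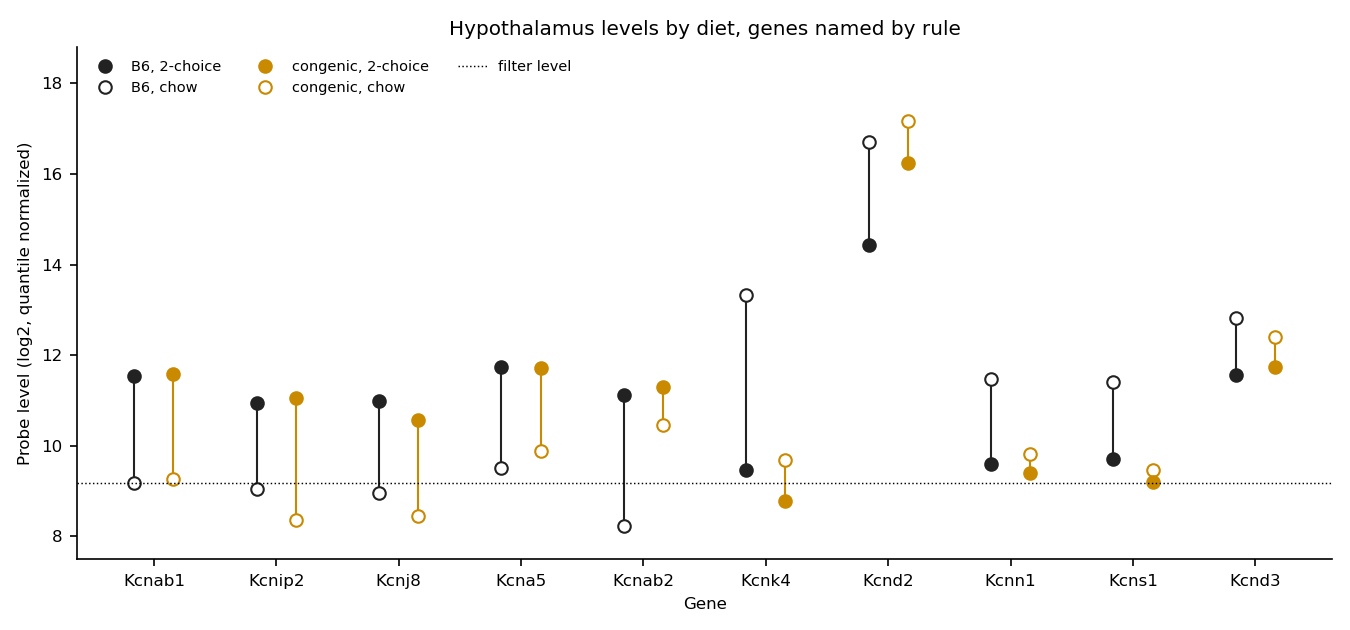
Hypothalamus levels (vertical axis, log2, quantile normalised) of the 5 higher and the 5 lower channel genes with the largest diet differences of 1 sign in both strains, with open points for chow, filled points for 2-choice, black for B6 and yellow for congenic, each point 1 array and each line 1 strain. The dotted line is the level filter (9.17): the chow levels of Kcnip2 and Kcnj8 and the B6 chow level of Kcnab2 (8.22) lie under it, the 2-choice levels of the first 5 genes lie between 10.57 and 11.74, and Kcnk4 has 1 high point at 13.33. The second Kcnk4 probe, not drawn, was higher on 2-choice in both strains.

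Markers of other cells moved with the diet in hypothalamus. The 6 measured anterior pituitary markers summed to 13.49 and 12.85 on chow and to 15.66 and 14.33 on 2-choice, with growth hormone (Gh) at 8.25 and 8.70 against 14.50 and 12.17. Prl (9.13 and 8.58 against 13.05 and 10.91) and Cga (8.58 and 9.18 against 13.16 and 12.60) were higher as well. Pomc and Tshb changed less, Tshb in opposite ways in the strains, and Lhb was lower (10.03 and 10.22 against 9.63 and 9.79). The 4 measured oligodendrocyte markers (of 6) summed to 17.27 and 17.57 against 18.59 and 18.20, the 5 endothelial markers, 1 of them under the filter, to 11.28 and 11.85 against 12.50 and 12.42, and the 5 hepatocyte markers (of 8), 1 under the filter, to 11.81 and 11.13 against 12.65 and 13.29. The 4 astrocyte markers (of 6) summed to 15.41 and 15.54 against 16.06 and 15.95, with Slc1a3 higher and Aldh1l1 lower in both strains. The 5 measured microglia and macrophage markers, 2 under the filter, summed to 15.74 and 15.58 against 15.02 and 15.08. That sum followed C1qa (15.35 and 15.10 against 14.30 and 14.51), while C1qb changed little (13.43 and 13.31 against 13.40 and 13.15). Aif1 was higher on 2-choice in B6 (8.91 to 10.56) and lower in congenic (11.30 to 10.39). No marker was listed at 0. The 4 mural cell markers, 1 under the filter, summed to 12.57 and 12.58 on chow and 12.55 and 12.51 on 2-choice, but single markers moved. Pdgfrb was at 11.30 and 8.68 against 10.56 and 10.43, and Rgs5 at 10.51 and 11.98 against 11.64 and 11.61. The part of any of these markers in the diet differences, that of Kcnj8 included, was not tested. The direction of some of these differences also depends on the scaling: with the deposited values unscaled, where the median of all probes tested is 2.05 higher on 2-choice, Kcnd2, Kcnd3, Kcnn1 and Kcns1 had positive differences.

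Over both tissues the diet test called 0 of 21 channel genes (limma; 0% of 15458 probes, 1432 at an unadjusted p under 0.05, none of the 21). Without the hypothalamus chow pair the diet term rests on the liver arrays alone, so that fit does not repeat the test over both tissues. It called 0 of 21 channel genes and 332 of 15480 probes on 1 residual degree of freedom (limma). The diet by tissue interaction called 0 of 21 (0% of 15458 probes, 2395 at an unadjusted p under 0.05, 6 of the 21 among them). Its lowest adjusted p among channel genes was that of Kcnj3 (2.69 ± 0.87, hypothalamus minus liver, adjusted p = 0.234), which differed by 1.58 ± 0.64 between diets in hypothalamus and by -1.12 in liver. Kcnd3 followed with -1.35 ± 0.45 (adjusted p = 0.24). Among the partners, sodium and calcium channels and transport genes, 0 were called between diets in hypothalamus or liver by limma.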

How the data were processed

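Linear probe intensity was used as deposited by the authors for 33012 probes on 8 single-channel arrays (labels: digoxigenin-labelled cRNA); the authors' normalisation is not given in the sources used here. Probes were named from the platform annotation, where 14411 had 1 symbol, 247 several and the rest none. Values were taken to log2 and quantile normalised over the 8 arrays. The R package limma (3.58.1, under R 4.3.3) was run with lmFit, a trended eBayes step and Benjamini-Hochberg adjustment over all probes. It tested tissue on all probes with the 4 strain and diet combinations as blocks (3 residual degrees of freedom), and strain and diet within tissue in 1 fit of 8 arrays (2 degrees of freedom) on probes past the level filter. Error terms are interactions, since no pool was repeated. The fits were tested on simulated data. Of changes of 4 log2 units, 37 of 72 for strain and 42 of 79 for diet were called in liver. In hypothalamus 50 of 82 and 35 of 80 were called. At 2 log2 units the counts were 9 of 89 and 12 of 85 in liver and 9 of 86 and 10 of 90 in hypothalamus. For tissue, 26 of 100 changes of 2 log2 units were called. An absent call therefore does not show an absent difference. Genes were named by size (up to 14 and 8 by tissue, 5 per direction otherwise, at least 1.5-fold), by known role, or by place on chromosome 17. The genes and lists were chosen with earlier results of these data known. Protein sequences were not used here. Symbols were matched to RefSeq for 67 of 67 genes.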

Additional observations from a re-analysis of the deposited data

How the results depend on the processing

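Kcna1, Kcnc4, Kcnd2, Kcnh1, Kcnip4, Kcnj16, Kcnk1, Kcnk13, Kcnk2, Kcnk5, Kcnma1 and Kcnmb4 were called between tissues in all 9 settings and all 8 fits without 1 array. The count higher in hypothalamus (19) was 12 with low values set to the 40th percentile, which lost Kcna5, Kcnab1, Kcnab2, Kcne4, Kcnh2, Kcnh5 and Kcnip2, and 12 to 18 on leaving out 1 array (12 without liver B6 2-choice). The count higher in liver (1) was 2 with median centring, without the variance trend, with a filter over 8 arrays and without the pair block, 4 without the hypothalamus chow arrays, where hypothalamus had 20, and 1 to 3 on leaving out 1 array (3, with Kcnj1 and Kcnj15, without either congenic chow array). Median centring moved the median tissue difference of all probes from -0.02 to -0.25 and the share of calls higher in hypothalamus from 51.2% to 40.8%.

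Channel genes called for diet in hypothalamus (0) were 35 with deposited values unscaled, 14 with median centring and 2 from hypothalamus arrays alone (Kcnd2, Kcnip4). For the diet by tissue interaction (0) they were 12 of 22 unscaled and 3 of 22 with median centring. Over all 15568 probes tested, 10781 and 3901 were called in these settings, so the counts are not read as an excess. These scalings moved the median of all probes tested by 2.05 and 0.79 for diet in hypothalamus, against 0.06 in the values reported. Leaving out 1 array gave 0 to 2 for diet in hypothalamus (Kcnk4 without either congenic hypothalamus array, with Kcnab2 where it was the 2-choice array) and for that interaction (Kcnd3 and Kcnk4 without the same arrays), 0 to 2 for strain in hypothalamus (Kcnip3 and Kcnk4 without either 2-choice array) and 0 to 1 for strain by tissue (Kcnip3 without the same arrays). Without 1 hypothalamus array, a strain or diet difference there rests on a single pair of arrays, with error from liver. The probes called for diet in hypothalamus (202) were 97 with quantile scaling within tissue, 0 without the trend (limma), 469 from hypothalamus arrays alone, 15430 unscaled and 7633 with median centring. From liver arrays alone, 189 probes and 0 channel genes were called for strain and 545 and 0 for diet by limma.

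Reversed signs were those of uncalled tissue differences: Kcnq1 (0.18 within-tissue scaling, 0.16 unscaled, 0.06 floored), Kcng3 (-0.12), Kcnq3 (-0.02) and Kcnt1 (0.00) under median centring, Kcnc1 (1.09, mean of probes), and Kcnj3 (0.52), Kcnj5 (0.24) and Kcnt1 (-0.18) without the hypothalamus chow arrays. Diet differences in hypothalamus turned for Kcnd2 (0.66), Kcnn1 (0.32), Kcns1 (0.39) and Kcnd3 (1.39) unscaled and Kcnd3 (0.13) with median centring. Leaving out 1 array gave tissue differences of -0.20 to 0.92 for Kcna3, -0.49 to 0.06 for Kcnd3, -0.13 to 0.41 for Kcng3, -0.02 to 0.51 for Kcnj6, -1.17 to 0.21 for Kcnk4, -0.39 to 0.26 for Kcnq1, -0.27 to 0.40 for Kcnq3 and -0.11 to 0.39 for Kcnt1. The cause of these changes was not tested. The number of arrays, 8 with none repeated, limits precision.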
